A study of Homo sapiens with 14 samples.

Results

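The insulin-like growth factor (IGF) axis was followed through IMR90, a cell line of fetal human lung fibroblasts that divides a limited number of times. Its 9 listed genes were the ligand IGF1, the receptors IGF1R and IGF2R, and the binding proteins IGFBP2, IGFBP3, IGFBP4, IGFBP5, IGFBP6 and IGFBP7. All 9 were listed in each kind of table, among 24638 genes that the 3 kinds of table had in common. The 14 poly(A)-selected RNA libraries fell into 7 groups with 2 titles each. I79 young and I10 young were proliferating cells of 2 isolates of the line, and I79 old and I10 old were the same isolates passaged until they stopped dividing. I79 ICM cells had received inflachromene (ICM), a compound known to bind HMGB1 and HMGB2 in chromatin, at a dose and for a time the labels do not give. WT and HMGB2 KD were wild-type cells and cells in which HMGB2 had been knocked down with siRNA. The labels give neither their isolate nor a control siRNA for WT.

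Each old or young group had 1 deposited column, taken as the authors' pooled value with no SD, and the isolates served as the replicates. Depth lay between 33561766 and 41168932 counts in the WT and HMGB2 KD libraries, between 14598280 and 20055595 estimated counts assigned to genes in the old and young columns, and at 10971132 and 13290131 reads in the ICM libraries. As CPM, counts scaled to the TMM-adjusted library total, the targeted gene HMGB2 stood at 27.1 and 27.3 in WT, against 3.22 and 3.64 after knockdown, and its log2 fold change was -2.99 (SE 0.16, edgeR adjusted p 8.28e-07). All 8 fibroblast markers examined were above 1 CPM in every library, with a summed level of at least 12173 CPM. Of the markers of other cell types, 2 of 5 epithelial markers were at 1 CPM or more in every library, as was 1 of 4 immune markers, CD68, which fibroblasts can also express. Of 4 endothelial markers 1 was at that level in every WT and HMGB2 KD library and 1 in both ICM libraries, and none of the 3 listed for old and young cells was. Only SFTPC (epithelial), CDH5 (endothelial) and CD3E (T cells) among these markers stood below 0.1 CPM in every library. In bulk RNA, fewer cells of a type and less RNA per cell cannot be told apart.

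IGF1 and IGF2 are secreted growth factors that signal through the receptor tyrosine kinase IGF1R to the PI3K and AKT pathway, which drives growth and survival of fibroblasts. IGF2R, also the receptor for mannose 6-phosphate, carries lysosomal enzymes and takes IGF2 up for breakdown rather than signalling for growth. The binding proteins hold IGFs in the extracellular space, where they lengthen the life of the ligand and limit or direct its access to the receptor, and proteases such as PAPP-A release it again. IGFBP3, IGFBP5 and IGFBP7 are known as secreted products of senescent cells.

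IGFBP2 and IGFBP5 are neighbours on chromosome 2 of GRCh37. IGFBP2 lies on the plus strand from 217497551 to 217529159 and IGFBP5 on the minus strand from 217536828 to 217560272, with 7668 bases between them. IGFBP3 (chromosome 7, 45951844 to 45961473, minus strand) is likewise 18584 bases from IGFBP1. IGFBP4 lies on chromosome 17 (38599702 to 38613977), IGFBP6 on chromosome 12 (53491220 to 53496129) and IGFBP7 on chromosome 4 (57896939 to 57976551), where its span overlaps the coding gene POLR2B. IGF1 lies on chromosome 12 (102789652 to 102875522), IGF1R on chromosome 15 (99191768 to 99507759) and IGF2R on chromosome 6 (160390114 to 160534539).

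The RefSeq promoter table, on GRCh38.p14, holds a promoter for 8 of the 9 genes. IGFBP7 has no entry. The 120 bases before the start are shown for the 4 binding proteins with a single listed start. A link between promoter letters and transcript levels was not tested. Capitals mark matches to a TATA box (TATAAA or TATATA or TATTTA) or to a GC box (GGGCGG, which reads CCGCCC where it lies on the other strand), searched on both strands with overlaps counted. The windows are chr7:45921273-45921392 (minus strand) for IGFBP3, chr17:40443330-40443449 (plus) for IGFBP4, chr2:216695550-216695669 (minus) for IGFBP5 and chr12:53097547-53097666 (plus) for IGFBP6.
IGFBP3: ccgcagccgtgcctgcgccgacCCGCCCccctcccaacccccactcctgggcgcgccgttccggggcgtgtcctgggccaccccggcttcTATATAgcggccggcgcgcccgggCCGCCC
IGFBP4: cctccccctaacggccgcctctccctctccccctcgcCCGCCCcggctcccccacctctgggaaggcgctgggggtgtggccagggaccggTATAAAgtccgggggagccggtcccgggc
IGFBP5: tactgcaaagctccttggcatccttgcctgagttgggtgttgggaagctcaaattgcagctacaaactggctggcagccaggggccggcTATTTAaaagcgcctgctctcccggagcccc
IGFBP6: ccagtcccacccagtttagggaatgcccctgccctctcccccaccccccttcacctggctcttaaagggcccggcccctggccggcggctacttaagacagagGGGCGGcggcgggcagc

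A TATA form began 30 bases before the start in IGFBP3 (TATATA), 29 bases before it in IGFBP4 (TATAAA) and 31 bases before it in IGFBP5 (TATTTA). Within the 250 bases before the start, 3 of the 8 genes held any of the 3 forms, against 20.3% of 35116 promoters in the table. The 8 genes have 11 listed promoters, with 3 for IGFBP2 and 2 for IGF1, and a gene counted if any of them matched. Counts of genes and shares of promoters are therefore not in the same unit. GC boxes were found in 6 of the 8 genes, against 42.6% of all promoters. The E-box CACGTG occurred 3 times before IGF2R, in a promoter that also held 6 GC boxes, against 6.34% of promoters with any E-box. The bases before IGFBP6 held a single GC box and none of the TATA forms. CCAAT, found in 32.0% of all promoters, occurred among these genes only before IGFBP2. A match describes the letters and does not show a bound site.

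The comparison of old with young columns asked how the axis differed after replicative exhaustion. IGFBP3 and IGFBP7 were higher in old cells, by 19.4-fold and 6.46-fold, and the ligand transcript IGF1 was lower, near the limit of counting. A gene was called where its adjusted p was under 0.01 and its log2 fold change over 0.6 in size. These 3 were called among 8 genes with a usable value, 2 higher and 1 lower, against 9.57% of 15115 genes tested (5.75% higher and 3.82% lower). The median log2 fold change of the 8 was 0.75, against -0.01 over all genes tested.

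IGFBP3, the main IGF carrier in blood, stood at 144 CPM in I79 young and 112 CPM in I10 young, and at 2775 CPM in I79 old and 2179 CPM in I10 old. Both old columns lay far above both young ones. Within the isolates the rise was 19.2-fold in I79 (95% counting interval 18.4 to 20.1) and 19.5-fold in I10 (18.7 to 20.4). The log2 fold change was 4.27 (SE 0.17, adjusted p 0.0032 in the quasi-likelihood test of edgeR), which ranked 85th from the top of 15115 genes. A further IGFBP3 transcript of 2262 bases had an ID that the annotation does not list, and held 125 reads in I79 young and 9271 in I79 old, and 373 and 9486 reads in I10. Counted with the gene, it moved the log2 fold change to 4.40 (adjusted p 0.0023 by edgeR).

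IGFBP7, a relative that binds IGFs weakly, stood at 122 CPM in I79 young and 102 CPM in I10 young. In old cells it was at 729.8 CPM in I79 and 708 CPM in I10, so the columns did not overlap. The log2 fold change was 2.69 (SE 0.14, adjusted p 0.0032 by edgeR). A shorter transcript, annotated without a coding sequence, took 14.6% of the gene's reads in I79 young and 3.81% in I10 young, against 1.43% and 0% in the old columns, so the coding transcript carried most reads throughout.

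IGFBP4 and IGFBP5 were the most abundant members and were also higher in both old columns, without passing the threshold. IGFBP4, generally an inhibitor of IGF action and the substrate of PAPP-A, was at 1719 and 1637 CPM in I79 and I10 young and at 4068 and 2895 CPM in old. Its log2 fold change was 1.03 (SE 0.20, adjusted p 0.021 by edgeR), with 2.37-fold in I79 and 1.77-fold in I10. IGFBP5, which binds extracellular matrix, was at 13374 and 11643 CPM in young and at 19063 and 23765 CPM in old (log2 fold change 0.77, SE 0.29, adjusted p 0.10). Here the isolates took the opposite order, with 1.43-fold in I79 and 2.04-fold in I10. DESeq2 called both genes (adjusted p 2.3e-08 and 0.00018).

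IGFBP2 and IGFBP6 showed no such rise. IGFBP2 was at 37.5 and 48.1 CPM in I79 and I10 young and at 33.1 and 43.0 CPM in old, where the difference between isolates exceeded that between ages (log2 fold change -0.17, SE 0.11, adjusted p 0.27 by edgeR). IGFBP6, which prefers IGF2 over IGF1, was at 60.7 CPM in I79 young and 92.1 CPM in I79 old, while I10 had 82.5 CPM when young and 59.7 CPM when old. The isolates moved in opposite directions, and the fitted value was 0.07 (SE 0.27, adjusted p 0.86).

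**Figure D1:**
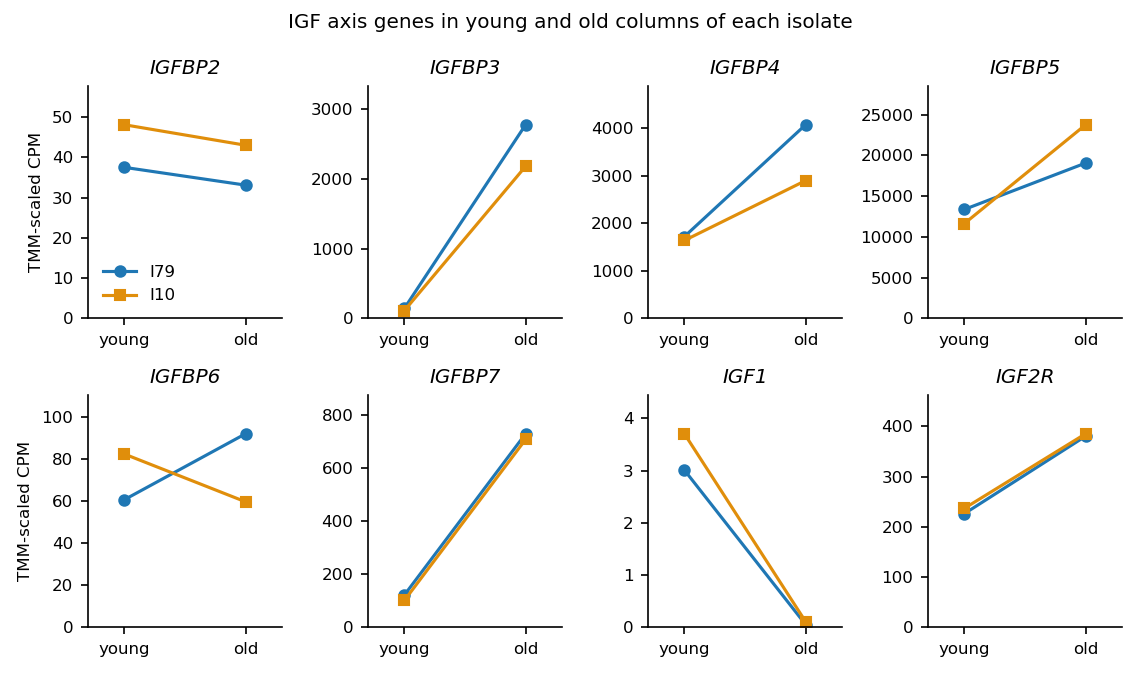
TMM-scaled CPM (y axes, from 0) of 8 IGF axis genes in the young and old columns of isolates I79 (circles) and I10 (squares), 1 deposited column per point and no error bars. IGFBP3, IGFBP4, IGFBP5, IGFBP7 and IGF2R are higher in both old columns, IGF1 is lower in both, and the lines of IGFBP6 cross.

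IGF1 was scarce even in young cells, with 47 estimated counts in I79 and 71 in I10 (3.01 and 3.70 CPM). Old columns held 1 and 2 counts. Young exceeded old 55.5-fold in I79, with a counting interval from 9.48 to 2236, and 33.5-fold in I10, with an interval from 8.94 to 282. The fitted log2 fold change was -5.24 (SE 0.53, adjusted p 0.0058 by edgeR). Its long transcript of 7359 bases took 91.7% and 86.5% of the young reads.

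IGF2R stood at 226 and 237 CPM in young and at 380.3 and 385 CPM in old columns of I79 and I10. The isolates were close at each age and the log2 fold change was 0.73 (SE 0.11), with an adjusted p of 0.013 by edgeR that missed the threshold. DESeq2 gave 0.00018. For IGF1R no fold change is given. Its 2 long transcripts, of 11803 and 11726 bases, had IDs that the annotation does not list and lay directly before the IGF1R rows of the table. Together they held 1492 young and 2347 old reads in I79, and 1882 young and 1808 old reads in I10. Scaled for depth, this was 95.5 CPM in I79 young and 127 CPM in I79 old, and 98.2 and 99.9 CPM in I10. The transcripts listed for the gene held 105 and 19 reads in I79 and 72 and 12 in I10.

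Marker sums of other cell types moved with age as well. The 5 epithelial markers summed to 80.1 and 83.9 CPM in young and to 49.6 and 51.6 CPM in old columns. The 3 endothelial markers summed to 0.37 and 0.64 CPM in young and to 2.54 and 7.22 CPM in old columns, and the 4 immune markers, nearly all CD68, to 21.6 and 23.5 CPM and to 84.9 and 158 CPM. The 8 fibroblast markers summed to 25053 and 26263 CPM in young and to 22289 and 29989 CPM in old columns, and the part of these markers in the results was not tested.

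Of the 8 genes, 6 had columns that did not overlap between ages, against 74.0% of all genes tested. Among the other genes of the pathway, from ligands and proteases to adaptors and AKT effectors, 6 of 37 tested were called, 5 higher and 1 lower. Over all genes tested the share called was 9.57% (5.75% higher and 3.82% lower). The ligand IGF2, whose exons also belong to the readthrough gene INS-IGF2, rose by 3.76 (log2, edgeR adjusted p 0.0032), with 19.9 CPM in I79 young and 336 CPM in I79 old, and with 11.7 and 126 CPM in I10. STC1, a secreted inhibitor of PAPP-A, rose from 26.1 to 339.8 CPM and from 31.9 to 289 CPM (3.44). The adaptors IRS2 and GAB1 rose by 2.12 and 1.01 on the log2 scale. PIK3R3, a regulatory subunit of PI3K, fell by 2.76. The protease gene PAPPA stood at 441 and 453 CPM in young and at 501 and 349.7 CPM in old columns, which overlapped.

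Of 11 tested genes whose products carry an IGFBP-like domain, 4 were called, against 9.57% of all genes tested. The matrix proteins CCN1 and CCN4 and the membrane protein CRIM1 rose by 1.71, 2.08 and 1.91 on the log2 scale, and the protease HTRA3 fell by 2.72. The median log2 fold change was 0.78 for this list and 0.32 for the pathway list, against -0.01 for all genes tested.

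The knockdown libraries asked whether the axis changed when HMGB2 was depleted. IGFBP2 fell to 0.43 of its WT level, IGFBP3 was lower at a value that just missed the threshold, and no other member was called. IGFBP2 was thus the 1 member called of 9, against 5.20% of 15338 genes tested (2.86% higher and 2.34% lower). The median log2 fold change of the 9 was 0.10, against 0.00 for all genes tested.

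The WT libraries held IGFBP2 at 270.0 and 163 CPM, and the knockdown libraries at 99.7 and 88.4 CPM. The groups did not overlap, though the WT libraries differed more from each other than the knockdown libraries did. The means were 217 ± 75.4 and 94.0 ± 8.04 CPM (SD, n = 2 each). The log2 fold change was -1.20 (SE 0.19, edgeR adjusted p 0.0012). Without HMGB2 KD replicate 2 the adjusted p was 0.025 and the call was lost, and DESeq2 gave 0.0103. The log2 fold change was -0.80 without WT replicate 1 and -1.53 without WT replicate 2.

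IGFBP3 had 278 and 237 CPM in the WT libraries, against 157 and 176 CPM after knockdown, with means of 257 ± 29.4 and 166 ± 13.6 CPM (SD, n = 2 each). Both knockdown libraries were below both WT libraries. The log2 fold change was -0.63 (SE 0.14, adjusted p 0.0106 by edgeR). It was called by DESeq2 (adjusted p 9.7e-05) and without WT replicate 2 (adjusted p 0.0062 by edgeR), and was -0.51 without WT replicate 1 (adjusted p 0.16).

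IGFBP5 and IGFBP7 differed in opposite directions, each with a small spread. IGFBP5 had 18227 and 18644 CPM in the WT libraries, against 13327 and 13931 CPM after knockdown (log2 fold change -0.44, SE 0.14, adjusted p 0.068 by edgeR). IGFBP7 had 825 and 813 CPM in the WT libraries, against 1096 and 1073 CPM after knockdown (0.41, SE 0.14, adjusted p 0.084). For both genes the libraries of the groups did not overlap, and both fold changes were under the 0.6 minimum.

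IGFBP4 had 2583 and 2774 CPM in the WT libraries, against 2899 and 2838 CPM after knockdown (log2 fold change 0.10, SE 0.14, edgeR adjusted p 0.75). IGFBP6 overlapped between the groups, with 63.3 and 59.8 CPM in the WT libraries, against 62.7 and 85.5 CPM after knockdown (0.27, adjusted p 0.30). Neither passed the test.

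**Figure D2:**
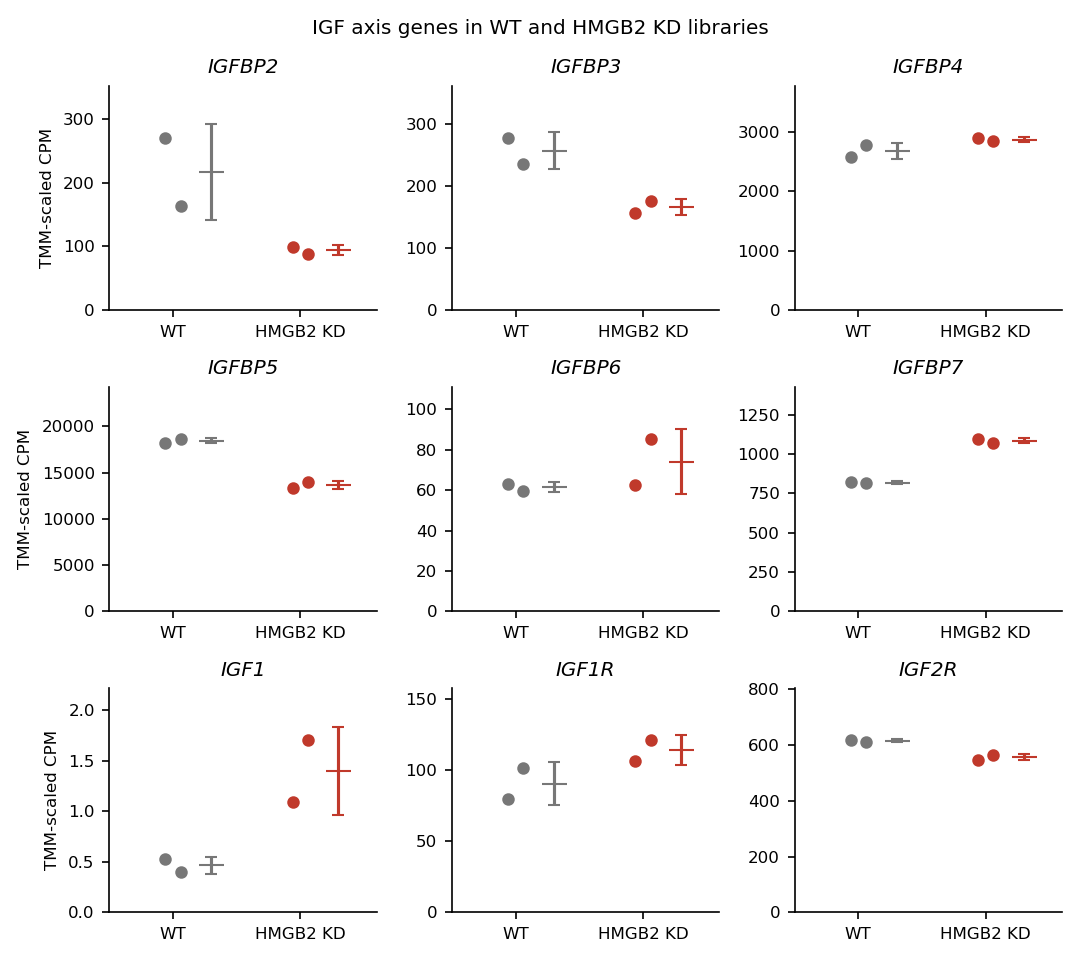
TMM-scaled CPM (y axes, from 0) of the 9 IGF axis genes in WT (grey) and HMGB2 KD (red) libraries. Points are libraries, and horizontal bars with whiskers are means ± SD (n = 2). IGFBP2, IGFBP3 and IGFBP5 are lower and IGFBP7 is higher in both HMGB2 KD libraries, and the IGFBP6 groups overlap.

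IGF1 was near the limit of counting, with 18 and 15 counts in the WT libraries, against 40 and 68 counts after knockdown (log2 fold change 1.59, SE 0.50, adjusted p 0.057 by edgeR). IGF1R had 79.8 and 101 CPM in the WT libraries, against 107 and 121 CPM after knockdown (0.33, SE 0.14, adjusted p 0.17). IGF2R had 617 and 610.4 CPM in the WT libraries, against 547 and 562 CPM after knockdown (-0.15, SE 0.14, adjusted p 0.58). No receptor therefore passed the test. Libraries of the 2 groups did not overlap for 8 of the 9 members, against 53.8% of all genes tested.

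Among the pathway genes, 4 of 40 tested were called after knockdown, against 5.20% of all genes tested. The protease PAPPA had a log2 fold change of -0.78 (edgeR adjusted p 0.0061), with 570.4 and 665 CPM in the WT libraries and 404 and 317 CPM after knockdown. HTRA1, a secreted protease that cleaves IGFBPs, rose by 0.69. The receptor adaptor GRB10 rose by 0.73, and EIF4EBP1, a repressor of translation under the control of mTOR, by 0.91. IGF2 was near the limit of counting, with 17 and 29 counts in the WT libraries and 59 and 100 counts after knockdown. As CPM it had 0.50 and 0.78 in WT, against 1.61 and 2.51 after knockdown (1.69, adjusted p 0.024 by edgeR). The part of the exons shared with INS-IGF2 was not tested. Of 9 tested genes with an IGFBP-like domain, HTRA1, HTRA3 and CRIM1 were called, all higher, by 0.69, 0.80 and 0.73. The share called higher over all genes tested was 2.86%, and HTRA1 is in both lists. The list medians were 0.03 for the pathway and 0.42 for the domain list, against 0.00 for all genes. The summed CPM of the fibroblast markers was 17394 to 23549 in WT and 27014 to 32896 in HMGB2 KD, and that of the epithelial markers 53.2 to 56.6 and 72.3 to 102. The immune markers summed to 39.1 to 39.7 CPM in WT and 44.5 to 49.9 CPM in HMGB2 KD, and the endothelial ones, whose ranges overlapped, to 7.10 to 7.21 and 5.14 to 9.86 CPM. The part of these markers in the results was not tested.

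**Figure D3:**
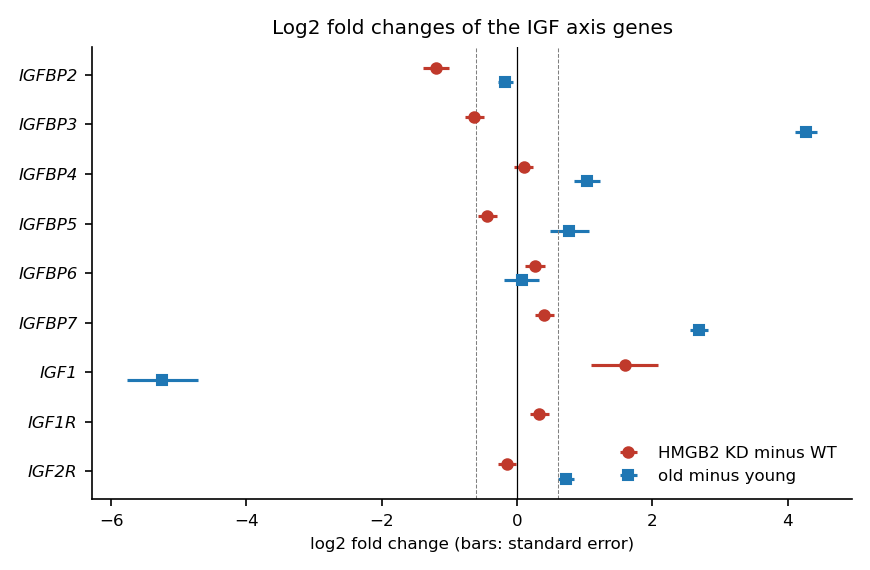
Log2 fold changes (x axis) of the 9 IGF axis genes, as HMGB2 KD minus WT (red circles, 2 libraries against 2) and old minus young (blue squares, 2 isolates), with bars of 1 standard error and dashed lines at 0.6 on either side of 0. IGFBP3 lies at -0.63 and 4.27, IGFBP2 at -1.20 and -0.17, and IGF1 at 1.59 and -5.24, and IGF1R has no old against young value.

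IGFBP3, IGFBP5 and IGF2R thus had log2 fold changes of opposite sign in the 2 comparisons, and IGF1 as well. For IGFBP3 they were -0.63 after knockdown and 4.27 in old cells, for IGFBP5 -0.44 and 0.77, and for IGF2R -0.15 and 0.73. Of these 8 values, IGFBP3 and IGF1 in old cells passed the threshold. No test of the difference between the comparisons was run, since the tables were counted in different ways.

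Levels were compared between genes only per length. In WT, IGFBP5 stood highest, at 2851 ± 45.5 CPM per kilobase of merged exons, ahead of IGFBP4 at 1215 ± 61.3 and IGFBP7 at 424 ± 4.40 (SD, n = 2). IGFBP3 (56.3 ± 6.43), IGFBP6 (45.7 ± 1.83) and IGFBP2 (45.7 ± 15.9) followed, and the spread of the 3 was too wide to order IGFBP2 among them. IGF2R was at 27.1 ± 0.22, IGF1R at 6.49 ± 1.08 and IGF1 at 0.06 ± 0.01. IGFBP5 ranked 4th among all genes in both WT libraries.

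As TPM, the per-length values that the authors deposited per transcript, summed per gene, IGFBP5 was at 3636 in I79 young and 3247 in I10 young, with IGFBP4 second at 1382 and 1347. IGFBP3 was at 110 and 88.4 TPM in young cells and at 1943 and 1462 TPM in old cells. By these listed transcripts it was the third of the 6 binding proteins in both old columns, against the fifth in I79 young and the sixth in I10 young. The unlisted IGFBP3 transcript of 2262 bases held a further 6.25 and 15.5 TPM in I79 and I10 young and 356 and 355 TPM in old columns. With it IGFBP3 would stand above IGFBP2 (88.9 TPM) in I10 young. The sums and shares that follow leave this transcript out. The summed TPM of the 6 was 5532 and 5134 in I79 and I10 young and 10756 and 10094 in old columns. IGFBP3 made up 1.99% and 1.72% of that sum in young and 18.1% and 14.5% in old columns, while IGFBP5 went from 65.7% and 63.2% to 43.6% and 55.6%.

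**Figure D4:**
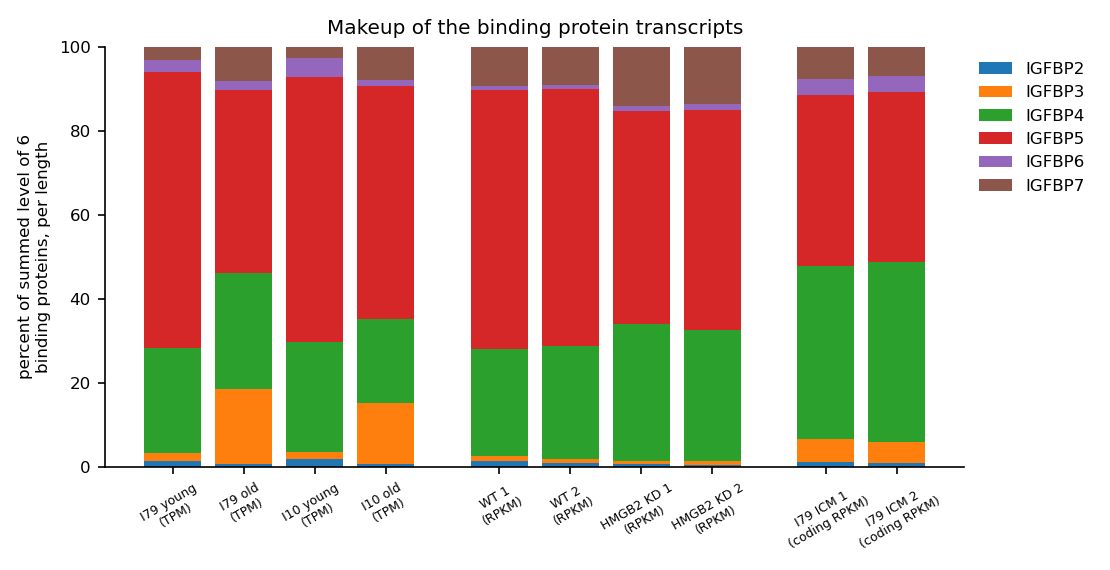
Share of each binding protein in the summed per-length level of the 6 (y axis, percent) in each column or library, with the unit of the level under each bar. Units differ between the 3 sets of bars. By its listed transcripts IGFBP3 takes 18.1% and 14.5% in the old columns and under 2% in the young ones, with its unlisted transcript left out.

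In the ICM libraries the coding reads, as CPM per kilobase of coding sequence, were 1565 ± 97.3 for IGFBP4 and 1510 ± 37.5 for IGFBP5 (SD, n = 2), which did not differ beyond their spread. IGFBP7 followed at 272 ± 12.8, IGFBP3 at 193 ± 15.6 and IGFBP6 at 139 ± 4.95. IGF2R was at 43.6 ± 2.34, IGFBP2 at 36.3 and IGF1R at 7.69 ± 0.15.

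The ICM tables gave reads by transcript region. For IGFBP5, 76.7% and 77.1% of reads lay in the 3′ UTR and 13.7% and 12.8% in the coding sequence. IGFBP3 had 55.7% and 57.0% and IGFBP4 53.0% and 55.1% of reads in the 3′ UTR. IGFBP2, IGFBP6 and IGFBP7 were mostly coding, with 90.0% and 93.5%, 78.7% and 80.5%, and 85.3% and 88.3%. Over all genes the 3′ UTR held 26.1% and 25.0% of the reads, so the members split to both sides of it. These shares are not scaled by the length of the regions. The coding sequence is 816 bases of the 6215-base main transcript for IGFBP5 and 873 of 2322 bases for IGFBP3.

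**Figure D5:**
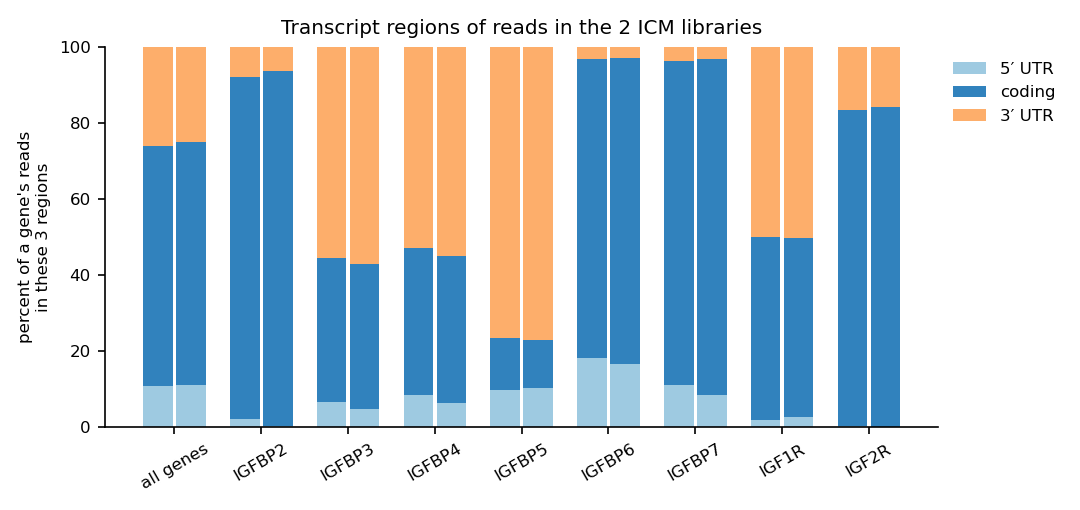
Percent of a gene's reads (y axis) in the 5′ UTR, coding sequence and 3′ UTR in the 2 ICM libraries (paired bars, replicate 1 left), for all genes and for members other than IGF1, which had too few reads. IGFBP5 has 76.7% and 77.1% in the 3′ UTR, against 26.1% and 25.0% for all genes, with no scaling by the length of the regions.

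ICM libraries were set against I79 young as log2 ratios of CPM over shared genes, with no test because the tables were counted in different ways. IGF1R was left out, since its long transcripts were not assigned to it in I79 young. Summed over their lists, the fibroblast markers were at 12173 and 12445 CPM, the epithelial markers at 46.7 and 53.9 CPM and the immune markers at 58.4 and 65.1 CPM under ICM. The fibroblast and epithelial sums lay below both young columns and the immune sums above them. The 4 endothelial markers summed to 3.55 and 3.59 CPM under ICM, and the 3 listed for young columns to 0.37 and 0.64 CPM. The part of all these markers in the ratios was not tested. IGFBP3 was at 486 and 429 CPM under ICM and at 164 CPM in I79 young, a log2 ratio of 1.47. IGFBP7 was at 288 and 260.1 CPM against 139 CPM (0.98), and IGFBP6 at 128 and 132 CPM against 69.2 CPM (0.91). All 3 were higher in both ICM libraries than in the single young column.

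IGFBP4 was at 3102 and 3369 CPM against 1959 CPM (0.72) and IGF2R at 388 and 414 CPM against 258 CPM (0.64). IGFBP5 was at 9146 and 10141 CPM against 15245 CPM (-0.66), and IGFBP2 at 40.6 and 39.1 CPM against 42.8 CPM (-0.10). IGF1 held 12.7 and 4.83 reads (-2.18). Of 8 members, 5 were past 0.6 higher and 2 lower, in a comparison where 59.2% of 13815 genes were past it either way (28.8% higher and 30.4% lower).

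The same steps applied to WT, which no label connects with ICM, put 5 of 8 members past 0.6 against I79 young. IGFBP7 was at 2.67 there and IGFBP2 at 2.41, both larger in size than the ICM ratio of any of the 8. For IGFBP3 the WT ratio was 0.76, against the ICM ratio of 1.47. Using WT as the control turned the IGFBP7 ratio to -1.70 and the IGF2R ratio to -0.73. IGFBP5 was at -2.95 with coding and noncoding ICM reads alone and IGFBP4 at -0.020. I79 young kept the reads of whole transcripts in that setting, so UTR reads were lost on the ICM side only. The ratios in this comparison cannot be told apart from differences between the tables.

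Genes with the most similar pattern were sought over 8 columns (WT, HMGB2 KD, young and old), as the smallest root mean square difference of log2 CPM centred within each experiment, among 12775 genes. For IGFBP3 these were INMT (0.29) and SHC2 (0.30), and for IGFBP7 EEF1A2 (0.13) and SLC2A3 (0.13). IGFBP4 was closest to PLEKHM2 (0.04) and VAMP4 (0.06), and IGFBP5 to QSOX1 (0.05) and GSTM3 (0.07). IGF2R was closest to R3HDM2 (0.04) and SPRY4 (0.04), IGFBP2 to TMEM164 (0.17) and ETFBKMT (0.19), and IGFBP6 to IER5L (0.09) and IRF2BP2 (0.10). For IGF1 the nearest were OLFM2 (0.33) and SPON1 (0.36). The columns share scaling within an experiment, so the values describe likeness only.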

How the data were processed

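Groups came from the sample titles. Raw counts per gene were deposited for the WT and HMGB2 KD libraries. Per the labels STAR 2.6.0c, featureCounts and GRCh37 were used in the series. Summary rows (16.9% to 18.0% of each table's total) were left out. For old and young cells the authors deposited estimated counts and TPM per transcript, with transcript and effective lengths, in the layout that salmon writes. The tool is not given in the sources used here, nor whether the 1 column per group pools the 2 titled replicates. Transcripts were summed per gene through GENCODE v44 lifted to GRCh37, which matched 97.2% to 97.4% of reads, and rounded. For ICM the authors deposited estimated counts per gene and transcript region. The study's methods name STAR on hg19 for RNA-seq of ICM-treated cells and describe, separately, mRNA libraries matched to ribosome profiling. Which of these gave the region tables is not given in the sources used here.

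edgeR 4.0.16 (R 4.3.3) was run with TMM scaling, filterByExpr and the quasi-likelihood test over all genes, with Benjamini-Hochberg adjustment, HMGB2 KD against WT (2 against 2) and old against young with isolate as covariate (1 residual degree of freedom). A call needed both an adjusted p below 0.01 and a log2 fold change above 0.6 in size. The SE is the fold change's size over the square root of F. TMM-scaled CPM are given for tested groups. For ICM, log2 CPM with a prior count of 2 was computed over all genes shared by the 3 kinds of table. The shares past 0.6 over all genes were taken from those with a mean of at least 10 counts. Intervals are exact (Clopper-Pearson, 95%) on the old share of counts and cover counting error only. Nothing in the labels says that replicates were separate cultures, so p-values refer only to the spread between these samples. The fits share variance across genes, so the p-value of a member does not rest on its own spread alone. The tests were tried on simulated counts in which every gene had the same spread, so the trial does not cover genes of unequal spread. Alternatives included DESeq2 1.42.0.

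The members and lists were chosen with earlier results of these data known. The text names all members, list genes called in a tested comparison, list genes that a count of 5 or fewer leaves, and the 2 genes nearest in pattern to each member. PAPPA in old cells, IGF2 after knockdown and CD68 were named after their values were seen. 1 item of the pathway list is counted but not reported here.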

Additional observations from a re-analysis of the deposited data

Results flagged for a closer look

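IGFBP6 was the member whose old to young change pointed in opposite directions in the isolates. Its log2 change was 0.60 in I79, from 949 to 1698 estimated counts, and -0.46 in I10, from 1581 to 1081. Each isolate had 1 column per age, so the difference between the isolates was not tested.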

How the results depend on the processing

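After HMGB2 knockdown, 1 member was called as reported, and 2 with an adjusted p under 0.05, with no filter on low counts, with 1 RUVs factor or with the replicate as a block. Leaving out 1 library gave 0 to 2 members. Without HMGB2 KD replicate 2 none was called by edgeR, where IGFBP2 and IGFBP3 had adjusted p of 0.025 and 0.026 and 4 members an unadjusted p under 0.05. DESeq2 was not run there. The pathway list went from 4 calls to 7 (adjusted p under 0.05), 7 (no filter), 8 (replicate block) and 1 to 4 (1 library left out), and the IGFBP-like domain list from 3 to between 1 and 2 with 1 library left out. Replicates 1 and 2 are linked only by number: across genes, the replicate 1 minus 2 difference correlated at 0.18 between WT and HMGB2 KD, and the block raised the calls over all genes from 797 to 1243. Without HMGB2 KD replicate 2 they were 312.

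In old against young, 3 members were called as reported, 5 with an adjusted p under 0.05 or with counts rebuilt from TPM, and 6 with no filter or with DESeq2. IGFBP3, IGFBP7 and IGF1 were called under each of these. The pathway list went from 6 calls to 13, 15 and 11 and the domain list from 4 to 7 and 9, with an adjusted p under 0.05, with no filter and, for the pathway, with DESeq2. With no filter, 4265 genes in all were called, against 1446. IGFBP6 turned to -0.46 in I10 alone. Against ICM, the 7 members past 0.6 became 4 with I10 young as the control. With WT as the control the ratios of IGF1, IGF2R and IGFBP7 turned to 0.37, -0.73 and -1.70. With coding and noncoding reads alone those of IGFBP2 and IGFBP4 turned to 0.40 and -0.020. That setting took UTR reads out of the ICM libraries and their totals only. Each ratio therefore moved by the gene's share of UTR reads relative to the share over all genes. The cause of the other changes was not tested. The transcripts added by position and the totals without abundant members were chosen after seeing the data, and changed no call of a member. Depth limits IGF1, with 1 and 2 counts in the old columns.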
